A study of Mus musculus with 6 samples.

Results

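The untreated arm of a mouse lung fibroblast study is described here: 3 control libraries of the 6 in the series, and within them the 12610 of 45706 listed genes that reached at least 1 CPM (the usual read count scaled to library size) in all 3. The cells were wildtype fibroblasts grown out of perfused, collagenase- and trypsin-digested mouse lungs in DMEM with serum, in 6-well plates, and harvested after a week in culture. The other 3 libraries came from cells of the same kind given recombinant mouse DKK1, a secreted Wnt antagonist, at 30 ng/ml for 24 hours. They were used here solely to ask whether libraries with the same replicate number share a pattern, and no treated library is compared with an untreated one. The age, sex and number of animals, any pooling, and the method by which the detached cells were purified are not given in the sources used here, so the libraries are samples of a mixed primary culture on plastic in serum and not of a sorted cell type. Nor do the labels say whether a replicate number stands for an animal, a culture or a plate. Every p-value below sets differences between replicate numbers against the scatter left among libraries of the same number, with treatment in the model. That scatter may be technical. If a number stands for a single animal, culture or plate, its libraries are not independent, and the p-values do not measure the spread between animals.

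Fibroblasts are the cells that build and remodel the connective tissue of the lung. They secrete collagens, glycoproteins and proteoglycans, and the enzymes that fold, crosslink and degrade them. When they take on the myofibroblast state they assemble bundles of smooth muscle actin and pull on that matrix, and stiff plastic and serum are known to favour this state. In the lung they arise from a mesenchyme marked by T-box, forkhead and Hox transcription factors, and several kinds (alveolar, adventitial, peribronchial, lipid-storing) are told apart by their markers.

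The control libraries held 22565917, 28268124 and 22652987 expected counts for replicates 1, 2 and 3. The 12610 genes took 99.8% of each total, and 12036 of them (95.4%) were protein-coding. Between 19576 and 19877 genes had any count in a library. A level of 3 counts, used as the limit of detection, was worth 0.106 CPM in replicate 2 and at most 0.133 CPM in the others, a limit that covers counting error only. Because long transcripts collect more reads, levels were compared between genes as TPM (the count divided by the gene's transcript length and scaled to a fixed total), and within a gene as CPM. Unless another length is named, TPM values and the order of genes are for the median length of a gene's transcripts, and an order can turn with another length.

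The culture carried its fibroblast markers at high levels. Col1a1, a chain of type I collagen, stood at 5944, 6321 and 5553 CPM in replicates 1, 2 and 3, which is 2170 ± 150 TPM (SD, n = 3). Acta2, the smooth muscle actin that defines myofibroblasts, stood at 5677, 5698 and 6423 CPM, or 6312 ± 418 TPM. Lrp1, an endocytic receptor abundant on fibroblasts, stood at 2312, 2342 and 2215 CPM. Their coefficients of variation (CV, the SD as a percentage of the mean) were 6.47%, 7.16% and 2.90%, against a median of 3.12% over the 99 genes at 1000 CPM or more. The level of Lrp1 per length depended on which transcripts were taken as its length: it was 1718 TPM with the median annotated transcript and 372 TPM with the principal one. In bulk RNA of this kind, fewer cells of a type and less RNA per cell cannot be told apart.

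A small number of genes made up much of the transcript pool. By TPM, 92 genes gave 25% of all transcripts and 459 gave 50%, and the median gene stood at 22.1 TPM. Among nuclear protein-coding genes, which leaves out the mitochondrially encoded mt-Co1 (6994 ± 162 TPM), mt-Cytb (3765 ± 98.9 TPM) and mt-Nd1 (3128 ± 97.6 TPM), the highest were Eef1a1, the translation elongation factor that delivers aminoacyl-tRNA (9343 ± 60.9 TPM), and Actb, the cytoplasmic actin (8905 ± 250 TPM). They were followed by Ftl1, the iron-storing ferritin light chain, Acta2, and Actg1, the other cytoplasmic actin. The ribosomal genes Rps2, Rplp1 and Rpl13a, the glycolytic enzyme Gapdh, the galectin Lgals1 and the calcium-binding S100a6 were also among the first 20 nuclear genes.

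Several of those 20 genes belong to the secreted and matrix lists. Sparc, a collagen-binding glycoprotein, stood at 5511 ± 275 TPM. Thbs1, the matricellular thrombospondin that can activate latent TGF-beta, stood at 4721 ± 289 TPM, and its long transcript made it the gene with the most counts, at 13114, 13204 and 11917 CPM. Bgn, a small leucine-rich proteoglycan, stood at 3968 ± 213 TPM. A further 5 of the first 20 belong to the cytoskeleton: Tpm1 (tropomyosin), Tagln (transgelin), Tmsb4x (which binds actin monomers), Pfn1 (profilin) and Vim (vimentin), between 3126 and 3345 TPM. Neighbours in this order often differed by less than their spread, as did Rps2 (4722 ± 38.6 TPM) and Thbs1. Membership of the first 20 depended in part on the transcript length used, and 14 of the 20 stayed under all 4 lengths tried.

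**Figure D1:**
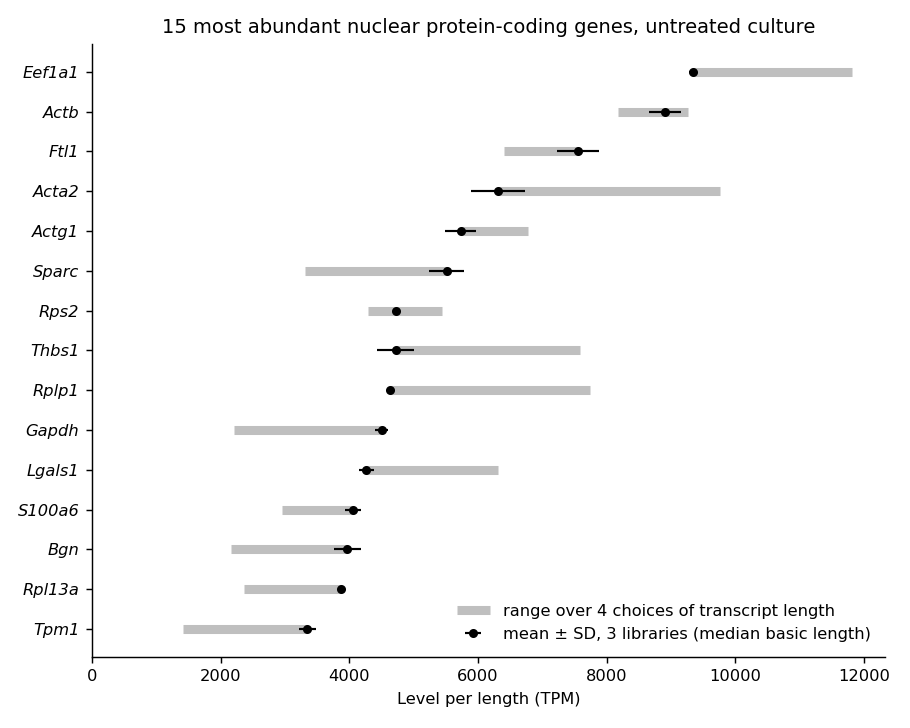
Level per length, in TPM, of the 15 most abundant nuclear protein-coding genes in the untreated culture. Points and thin bars are the mean and SD of the 3 control libraries, thick grey bars span 4 choices of transcript length, and for all 15 genes the span over lengths was wider than the SD of the libraries.

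The contractile genes were all present. All 14 genes of the myofibroblast and contractile list reached 1 CPM in every control library, and together they held 2.17% ± 0.09 of all TPM (SD, n = 3). Acta2, Tpm1 and Tagln were followed, at the median length, by Myl9, the regulatory myosin light chain (1666 ± 109 TPM), and Cnn2, a calponin that stabilises actin filaments (1379 ± 44.5 TPM). Tnc, the matricellular tenascin made in wounds, stood at 1308 ± 82.2 TPM. Postn (periostin) and Cthrc1, matrix genes of activated fibroblasts in fibrotic lung, were the lowest of the list, at 36.2 ± 3.27 and 79.1 ± 11.3 TPM. Genes of mature smooth muscle reached 1 CPM in 8 of 10 cases: Actg2, the enteric smooth muscle actin, stood at 1022 ± 35.2 TPM and Cnn1, the smooth muscle calponin, at 676 ± 24.4 TPM. The smooth muscle myosin Myh11 stood at 335, 338 and 336 CPM. Des, the desmin of muscle intermediate filaments, was uneven, at 105, 62.5 and 54.1 CPM, with replicate 1 high.

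Many contractile genes are known to be driven by serum response factor, which binds a DNA element called the CArG box. The 250 bases before the annotated start were available for 10 of the 14 contractile list genes, and an exact CArG box (searched on both strands, on which it reads alike) was found in 2 of them, against 439 of 27025 genes (1.62%) with a window of the same length. The windows of these 2 genes are shown because they hold the box, which is in capitals. The more abundant Acta2, Tpm1 and Tagln of the list either had no window available or held no exact box in it. The sequences are from RefSeq, build GRCm38.p6, on the plus strand: Cnn2 at chr10:79988350-79988599 and Myl9 at chr2:156775214-156775463.
Cnn2: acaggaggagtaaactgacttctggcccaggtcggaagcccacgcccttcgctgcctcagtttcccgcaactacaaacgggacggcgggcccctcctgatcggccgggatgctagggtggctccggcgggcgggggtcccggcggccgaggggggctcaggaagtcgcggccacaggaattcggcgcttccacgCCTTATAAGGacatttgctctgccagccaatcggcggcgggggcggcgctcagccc
Myl9: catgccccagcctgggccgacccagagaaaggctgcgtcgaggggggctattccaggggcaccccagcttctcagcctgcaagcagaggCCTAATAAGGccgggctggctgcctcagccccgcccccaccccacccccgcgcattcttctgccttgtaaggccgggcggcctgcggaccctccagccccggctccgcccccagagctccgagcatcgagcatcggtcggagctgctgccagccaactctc
The box began 56 bases before the start in Cnn2 and 161 bases before it in Myl9. A match is a description of the letters, and the absence of a match in the other windows says only that these letters are not in this window.

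Structural matrix genes held the larger part of the summed TPM of the secreted and matrix lists. Those lists also hold genes whose products are not secreted, such as the membrane-bound Mmp14 and 4 receptor genes. The 10 secreted and matrix lists held 492 genes, of which 309 reached 1 CPM in all 3 libraries, and together they took 6.46%, 6.49% and 6.27% of all TPM. The structural matrix (collagen chains, glycoproteins and proteoglycans, 108 of 138 genes at 1 CPM) took 3.68% ± 0.15 (SD, n = 3). For scale, cytoplasmic ribosomal proteins took 11.97% ± 0.06 and mitochondrially encoded genes 3.01% ± 0.06. These shares cannot be ranked firmly: as shares of counts the structural matrix took 6.99% and ribosomal proteins 4.40%, and with merged exon lengths mitochondrial genes took 5.01% and the matrix 4.17%.

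**Figure D2:**
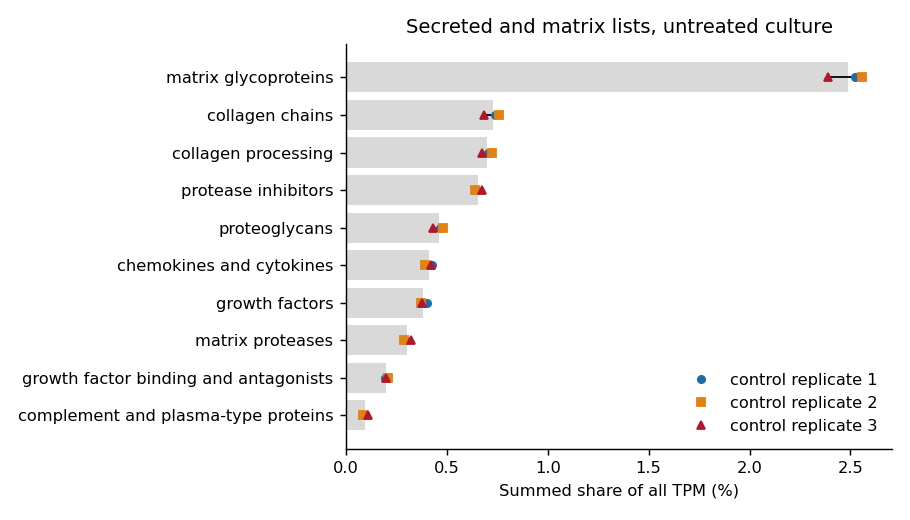
Share of all TPM, in percent, taken by each secreted or matrix list in the untreated culture. Grey bars are the mean of the 3 control libraries with the SD, symbols are the single libraries, and matrix glycoproteins took the most, between 2.39% and 2.56%.

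Of 44 collagen chain genes, 29 reached 1 CPM in every library. Those of interstitial fibrils led. Behind Col1a1 stood Col1a2, the second chain of type I collagen, at 2946, 3273 and 2657 CPM (1198 ± 130 TPM), and Col5a2, a chain of the collagen that nucleates fibrils, at 3355, 3337 and 3000 CPM (1056 ± 70.6 TPM). Replicate 3 was the lowest for all 3 genes. The order of Col1a2 and Col5a2 turned with the length used, since merged exons put them at 861 and 1218 TPM. The basement membrane chains Col4a1 and Col4a2 followed at 675 ± 64 and 502 ± 43.8 TPM, and Col3a1, which copolymerises with type I collagen, stood between them at 542 ± 28.9 TPM. Col3a1 and Col4a2 differed by less than their combined spread.

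Of the matrix glycoproteins, 63 of 67 genes reached 1 CPM, the highest share among the secreted and matrix lists. Behind Sparc and Thbs1 stood Ccn2, the connective tissue growth factor of the CCN family, at 2078, 2039 and 2327 CPM (1903 ± 128 TPM). Fn1, the fibronectin on which cells assemble collagen, stood at 1404 ± 59.4 TPM and Fbln2, a fibulin of elastic fibres, at 1169 ± 136 TPM. Mgp, the inhibitor of calcification, varied most among these, at 336, 454 and 289 CPM with replicate 2 high. Proteoglycans were led by Bgn by a wide margin, since the next genes, the basement membrane perlecan Hspg2 and the leucine-rich Prelp, stood at 191 ± 16.3 and 171 ± 30.7 TPM. Dcn, the decorin that is abundant in resident lung fibroblasts, stood at 33.0, 39.9 and 48.8 CPM, or 49.9 ± 9.52 TPM. Lum, the related lumican, was close to the 1 CPM limit at 1.77, 2.72 and 1.85 CPM.

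The machinery that processes collagen was expressed nearly in full, with 26 of 28 genes at 1 CPM. Serpinh1, the collagen chaperone, stood at 1799, 1824 and 1742 CPM (1765 ± 50.3 TPM). P4hb, a subunit of prolyl hydroxylase and a disulfide isomerase, stood at 1454 ± 24.6 TPM. Lox, the lysyl oxidase that starts collagen crosslinks, stood at 1199, 1306 and 1057 CPM (559 ± 61.4 TPM). Among matrix proteases, 37 of 53 genes reached 1 CPM, led by the lysosomal cathepsins Ctsd (888 ± 105 TPM) and Ctsb (271 ± 13.1 TPM) and by Mmp14, a collagenase bound to the cell membrane (447 ± 4.46 TPM). No count was recorded in any control library for Mmp7, Mmp20, Mmp1a, Adamts13 or Plg, which allows up to 0.133 CPM in replicate 1. Of 24 protease inhibitors, 16 reached 1 CPM. Among them, Timp1, an inhibitor of metalloproteinases, stood at 897 ± 31.9 TPM and Cst3, the cystatin that blocks cathepsins, at 859 ± 43.6 TPM.

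Soluble signals took a smaller share of all TPM than the structural matrix (3.68%). Chemokines and cytokines took 0.41% and growth factors 0.38%. In all, 30 of 91 chemokines and cytokines and 61 of 104 growth factors reached 1 CPM, and 25 and 11 of them had no count in any control library. The proportion of growth factors at 1 CPM was near that of proteoglycans (16 of 27). The chemokine and cytokine list as used for the shares also held 4 receptor genes (Il7r, Il9r, Il21r and Il23r), none of which reached 1 CPM. Csf1, the macrophage colony-stimulating factor, was the highest cytokine by far in counts, at 2166, 2003 and 2236 CPM, and stood between 1236 and 1794 TPM depending on the transcript length. Mif, a constitutive cytokine, stood at 787 ± 11.6 TPM. Cxcl14, an epithelial and stromal chemokine, was uneven, at 602, 394 and 480 CPM, with replicate 1 high and replicate 2 low. Cxcl12, which retains leukocytes through CXCR4, stood at 630, 751 and 652 CPM. Among growth factors, Fgf2, a fibroblast mitogen, stood at 342, 303 and 292 CPM, but its level per length ran from 126 to 1265 TPM over the 4 lengths, so it cannot be placed among its peers. Vegfa, which drives vessel growth, had a similar limit, at 167 to 779 TPM, and Manf, a secreted endoplasmic reticulum stress factor, stood at 265 ± 6.94 TPM.

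Antagonists and binding proteins of growth factors reached 1 CPM in 21 of 31 cases. Fstl1, a secreted follistatin-like glycoprotein, stood at 1033, 1109 and 1041 CPM. Grem1, an antagonist of bone morphogenetic proteins, stood at 803, 893 and 888 CPM, and Fst, the follistatin that binds activins, at 114, 127 and 128 CPM. The CVs of these 3 genes were 3.92%, 5.85% and 6.19%. The median CV was 3.12% over genes at 1000 CPM or more and 2.94% over genes from 100 to under 1000 CPM.

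The receptors through which DKK1 is known to act were present in these cells, to which none was added. Lrp6, the Wnt co-receptor that DKK1 binds, stood at 150, 152 and 146 CPM, or 34.5 ± 0.92 TPM. Its paralogue Lrp5 stood at 96.5, 79.3 and 79.5 CPM, or 46.6 ± 5.50 TPM, but Lrp5 ran from 26.2 to 46.6 TPM and Lrp6 from 34.5 to 43.6 TPM over the transcript lengths, so their order is not settled. Kremen1, a receptor that removes Lrp6 from the surface together with DKK1, stood at 63.0, 67.1 and 64.6 CPM. Ckap4, described as another DKK1 receptor, was the highest of these 4 per length, at 524, 552 and 513 CPM (403 ± 17.0 TPM). Dkk2 and Dkk3, other Dickkopf family members, stood at 32.2 ± 2.30 and 90.5 ± 11.8 TPM. Dkk1 itself was at or under the detection limit, at 0.0443, 0 and 0.132 CPM, and Dkk4 and Kremen2 had no count in any control library.

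Lineage markers placed the culture with lung mesenchyme. All 14 fibroblast markers reached 1 CPM, with summed levels of 16920, 17838 and 15938 CPM, as did 17 of 18 transcription factors of lung mesenchyme. Among the higher of these factors were Prrx1, a mesenchymal homeobox gene (122 ± 7.79 TPM), Hoxa5, which patterns the lung (91.2 ± 4.64 TPM), and Osr1, an odd-skipped factor of lung mesoderm, at 66.5, 78.6 and 63.9 CPM. With merged exons Hoxa5 stood above Prrx1, at 152 against 91.8 TPM. Tbx4, a T-box factor of lung and hindlimb mesenchyme, stood at 93.5, 80.7 and 76.5 CPM, and Foxf1, a forkhead factor of the lung mesenchyme, at 64.3, 58.7 and 63.3 CPM. Thy1, a surface marker of lung fibroblasts, was uneven, at 61.3, 93.9 and 65.5 CPM, with replicate 2 high.

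Markers of the fibroblast kinds were only partly present at 1 CPM, and all members of a list reached it for the lipid-storing kind alone. Of 11 alveolar fibroblast genes 6 reached 1 CPM: Npnt, the nephronectin of the alveolar basement membrane, stood at 336 ± 30.8 TPM and Itga8, its integrin receptor chain, at 69.2 ± 6.28 TPM, whereas Inmt (an N-methyltransferase), Ces1d (a carboxylesterase) and Scube2 stayed under 1 CPM in every control library. Of 10 adventitial genes 6 reached 1 CPM, led by Col14a1, a fibril-associated collagen, at 95.1, 108 and 73.2 CPM, and the defining genes Pi16 and Dpp4 stood under 1 CPM, at 0.0886 to 0.265 and 0.222 to 0.662 CPM. Of 6 peribronchial genes 5 reached 1 CPM but all at low levels, and the highest, Fgf18 and Aspn, stood at 2.79 ± 0.27 and 2.62 ± 0.64 TPM. All 6 lipofibroblast genes reached it, led by the lipid droplet coat protein Plin2, at 125, 107 and 130 CPM. Pericyte genes reached it in 6 of 8 cases, led by the adhesion molecule Mcam at 63.3, 65.7 and 84.0 CPM.

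The untreated culture also carried the transcripts of dividing cells. All 25 proliferation genes reached 1 CPM in every control library. Mki67, present in all cycling phases, stood at 458, 492 and 464 CPM, and Top2a, the topoisomerase needed to separate chromosomes, at 302, 339 and 315 CPM. Pcna, the clamp of the replication fork, was the highest per length at 264 ± 6.03 TPM. All 7 cyclin-dependent kinase inhibitors were present as well, led by Cdkn1a, the p53 target p21, at 386, 378 and 344 CPM (518 ± 34.0 TPM).

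Markers of other lung cell types were present at much lower summed levels than the fibroblast and contractile lists, although the leukocyte sum exceeded those of the lipofibroblast, adventitial and pericyte lists, and they differed between the libraries. The summed leukocyte level was 456, 525 and 926 CPM in replicates 1, 2 and 3, and 16 of 20 leukocyte genes reached 1 CPM. Most of that sum came from Lyz2, the lysozyme of macrophages, at 340, 402 and 696 CPM, while Lyz2 is also made by alveolar type II cells. Epithelial markers summed to 70.6, 77.0 and 158 CPM with 7 of 16 genes at 1 CPM, endothelial markers to 38.9, 36.2 and 94.6 CPM with 11 of 13, and mesothelial markers to 34.3, 29.0 and 66.9 CPM with 5 of the 9 found. In each of these 4 lists replicate 3 was the highest and lay apart from replicates 1 and 2. The T-cell gene Cd3e, the natural killer gene Ncr1 and the basal cell keratin Krt5 had no count in any control library, and none of 6 erythroid genes reached 1 CPM.

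**Figure D3:**
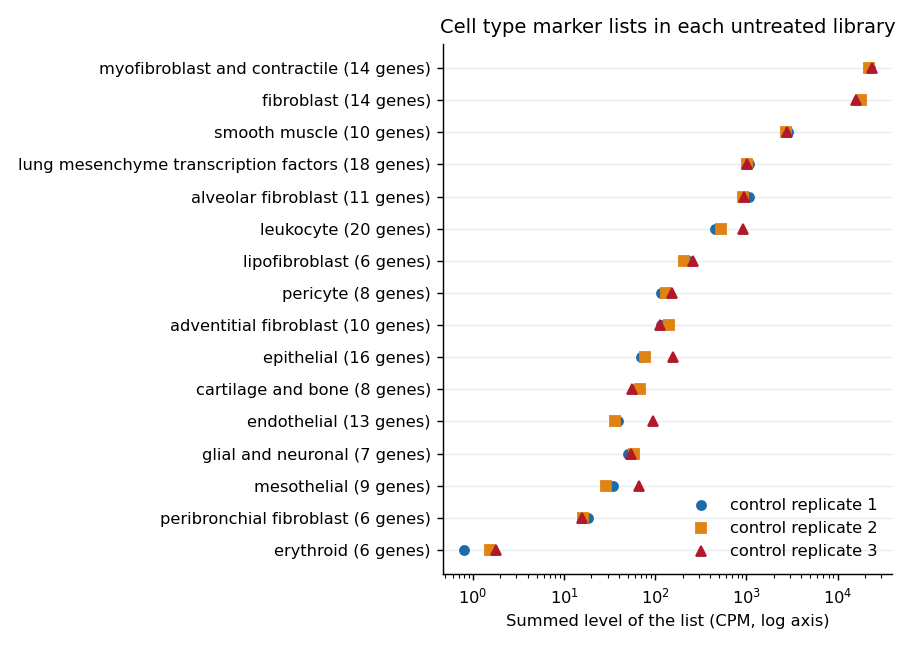
Summed level of each cell type marker list, in CPM on a log axis, in the 3 control libraries. Contractile and fibroblast lists stand at the top, between 15938 and 23857 CPM, and replicate 3 lies to the right of replicates 1 and 2 for leukocyte, epithelial, endothelial and mesothelial lists.

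For most genes the libraries agreed closely. The median CV over the 12610 genes was 5.17%, against 3.84% from counting noise alone, and it was 3.12% for the 99 genes at 1000 CPM or more, where counting gives 0.543%. A CV above 20% was found for 952 genes (7.55%), and for 0 of the 99 most abundant. The correlation of log2 CPM between libraries, across genes that are not independent replicates, ran from 0.994 to 0.996. Between replicates 1 and 2, 7 genes differed by at least 2-fold, whereas 80 did between replicates 1 and 3 and 68 between 2 and 3. Among the 148 genes with a CV above 20% and a mean of at least 10 CPM, replicate 3 stood apart on the high side in 72 and on the low side in 8, replicate 1 in 17 and 12, and replicate 2 in 23 and 16. A minimum on the mean favours a high library over a low one in each of these counts.

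**Figure D4:**
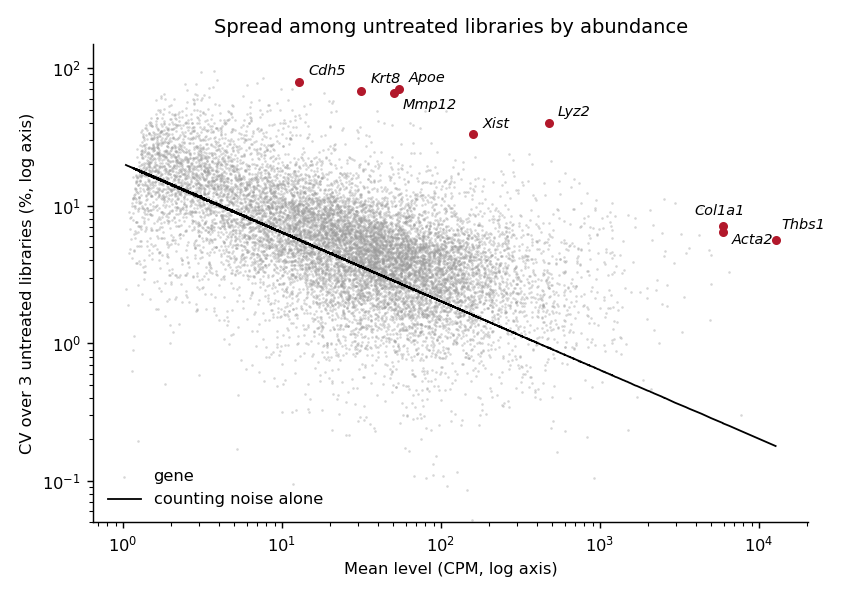
Coefficient of variation over the 3 control libraries against mean level in CPM, both on log axes, for the 12610 genes (grey points). The black line is the CV that counting alone would give, and the labelled genes Cdh5, Krt8, Mmp12, Apoe, Lyz2 and Xist lie far above it.

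The most uneven genes included markers of other cell types. Above a mean level of 10 CPM, and ranked by the ratio of the highest to the lowest library, Cdh5, the cadherin of endothelial junctions, came first at 7.89, 6.01 and 24.6 CPM. Krt8, a keratin of simple epithelia and mesothelium, stood at 17.3, 20.9 and 56.5 CPM, and Cdh1, the epithelial cadherin, at 6.47, 8.10 and 18.3 CPM. Mmp12, the macrophage elastase, stood at 25.04, 38.7 and 88.4 CPM, and Clec7a, a beta-glucan receptor of myeloid cells, at 9.66, 13.2 and 32.4 CPM. In all 5, replicate 3 was the highest, but Cdh5 and Cdh1 reached the mean of 10 CPM through replicate 3 alone, so for them the choice favoured a high replicate 3. Replicate 3 was also the highest for Apoe, the apolipoprotein secreted by macrophages and other cells, at 32.1, 33.2 and 99.4 CPM. It was the highest too for the fatty acid receptor Cd36, at 11.9, 16.1 and 34.7 CPM, and for the monooxygenase Fmo2, at 19.0, 12.9 and 33.5 CPM. Apoe, Cd36 and Fmo2 stood above 10 CPM in all 3 control libraries. The other 2 of these 10 genes, Gm43305 and Gm20388, had counts that were not whole numbers in all 3 libraries, which marks reads shared with other genes, and their values are uncertain. At the other end, the most even genes at 100 CPM or more were Mbd3, a subunit of a chromatin remodeller, Sh3pxd2b, a podosome scaffold, the ubiquitin-binding Ccdc50, the ribosomal Rps3 and the histone reader Zzz3, with CVs from 0.0519% to 0.109%, below the counting noise at their levels. Cdh5, Krt8 and Mmp12 overlap a gene on the other strand.

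Whether a replicate number carried a pattern of its own was tested over all 6 libraries with edgeR's quasi-likelihood F test of the 2 replicate-number terms, with the treatment in the model and Benjamini-Hochberg adjustment over 14997 genes. It called 1895 genes (12.6%) at an adjusted p under 0.05. Number 1 was the highest in 546 of them (3.64% of genes tested), number 2 in 611 (4.07%) and number 3 in 738 (4.92%), and number 3 was the lowest in 707 (4.71%). Most differences were small, with a median range of 0.28 on the log2 scale over called genes among the 12610. Of the 270 called genes with a range of at least 2-fold, number 3 was the highest in 228, number 1 in 17 and number 2 in 25. The count fell to 1096 without control replicate 2 and to 1094 without DKK1 replicate 2, and DESeq2's likelihood ratio test of the same terms called 724 genes.

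Markers of the other cell types were prominent among these genes. Of 17 tested leukocyte genes 14 were called, of 13 endothelial genes 11 and of 8 mesothelial genes 8, and number 3 was the highest in every one of them. Over all genes number 3 was the highest in 38.9% of those called, which is 4.92% of those tested. It was the highest in 7 of the 8 epithelial genes called of 12 tested; of these 7, Lamp3 and Sftpb passed the count minimum through the libraries numbered 3 alone. The exception was Hopx, an alveolar type I gene, at 2.57, 1.203 and 2.38 CPM. Number 3 was also the highest of the DKK1 libraries in all 4 sums, at 496, 539 and 952 CPM for leukocyte and 44.7, 33.8 and 94.3 CPM for endothelial markers. The epithelial sums were 72.5, 67.5 and 159 CPM and the mesothelial sums 34.2, 29.6 and 70.04 CPM; the order of numbers 1 and 2 differed from that of the controls for epithelial markers. Examples were Lyz2 (edgeR quasi-likelihood adjusted p = 5.5e-10), Krt18, another keratin of simple epithelia, at 13.4, 12.9 and 32.9 CPM (edgeR adjusted p = 1.6e-07), and Cdh5 (edgeR adjusted p = 5.3e-07). Sftpc, the surfactant protein of alveolar type II cells, stood at 0.798, 2.65 and 8.39 CPM (edgeR adjusted p = 0.00046). Under the alternatives tried, including leaving out each library, the called genes with number 3 highest numbered 14 to 15 for leukocyte, 7 to 11 for endothelial, 7 to 8 for mesothelial and 4 to 10 for epithelial lists; the lowest endothelial and epithelial values came from DESeq2.

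**Figure D5:**
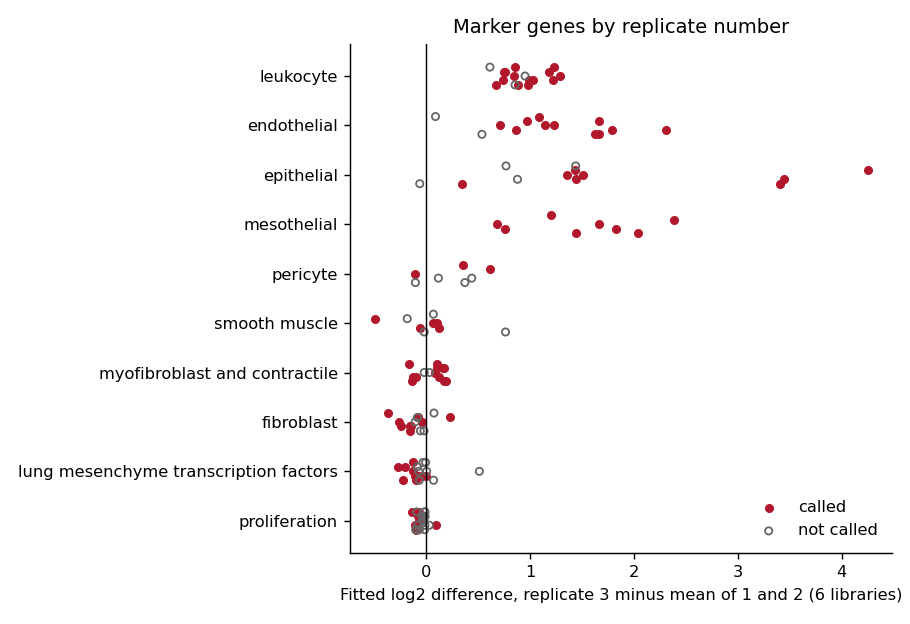
Fitted log2 difference of replicate number 3 from the mean of numbers 1 and 2, over all 6 libraries, for tested genes of 10 marker lists. Filled points passed the edgeR test of replicate number, and those of leukocyte, endothelial and mesothelial genes lie to the right of 0. Of the 9 called genes in the fibroblast list, number 3 was the lowest in 5 and the highest in 1. The proliferation list gave the same counts.

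Several fibroblast programmes differed by replicate number too, by small amounts. Collagen processing genes were called in 14 of 28 cases, against 12.6% of all genes, with number 3 the lowest in 12 and the highest in 0. Over all called genes number 3 was the lowest in 37.3% and the highest in 38.9%. Lox was lower in number 3 by a log2 difference of -0.23 from the mean of the other two numbers (edgeR adjusted p = 6.2e-06), and Serpinh1 by -0.06 (edgeR adjusted p = 0.043). Matrix glycoproteins were called in 42 of 65 tested cases, with number 3 the lowest in 24. Number 2 was the highest in 21 of them, number 1 in 12 and number 3 in 9, and Fbln2 stood at 2487, 2856 and 2292 CPM. In the contractile list 12 of 14 genes were called and number 3 was the highest in 8, among them Acta2 (log2 difference 0.19, edgeR adjusted p = 3.6e-05). Col1a1 went the other way, at -0.16 (edgeR adjusted p = 0.00011). Lrp1 was also lower, at -0.16 (edgeR adjusted p = 0.0058), a call that was lost without DKK1 replicate 3, where the difference was -0.08, and under DESeq2, where it stayed at -0.16. Number 3 also had the highest summed leukocyte, endothelial, epithelial and mesothelial levels given above. Not all of the differences here set number 3 apart, and whether those cells had a part in any of them was not tested.

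Other fibroblast genes were highest in number 2. Of 14 fibroblast markers tested 9 were called, against 12.6% of all genes, and number 2 was the highest in 6, against 32.2% of all called genes, including Thy1 (edgeR adjusted p = 4.5e-07) and S100a4, a calcium-binding protein, at 219, 292 and 222 CPM. Of 25 proliferation genes tested 9 were called, with number 2 the highest in 8 and number 3 in 1. Of 9 alveolar fibroblast genes tested 7 were called, with number 1 the highest in 6, against 28.8% of all called genes. Of 83 tested ribosomal protein genes, 3 were called.

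Transcripts from both sex chromosomes were found in every control library. Xist, the RNA that coats the inactive X chromosome, stood at 131, 222 and 127 CPM, with replicate 2 high. The Y-linked helicase gene Ddx3y stood at 58.4, 42.9 and 59.6 CPM, with replicate 2 low, and the Y-linked genes Eif2s3y, Kdm5d and Uty had the same lowest library. All 5 genes passed the test of replicate number, which called 12.6% of all genes, and for Xist (edgeR adjusted p = 8.6e-08) and Ddx3y (edgeR adjusted p = 1.2e-05) the DKK1 libraries had the same order of number 2 against the others, at 131, 226 and 111 CPM and at 57.9, 40.3 and 58.9 CPM. Xist lies across from an antisense gene. Whether counting used strand is not given in the sources used here, so its count may include reads of that partner.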

How the data were processed

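RNA-seq of 6 libraries was used. The authors deposited a table of RSEM expected counts per gene, not scaled, as its file name and values show; between 9.62% and 10.1% of values in the control columns were not whole. The submitters' processing notes name STAR, RSEM, edgeR 4.2.1, GRCm38 and mm10 without role or order, and the strandedness is not given in the sources used here. Symbols and transcript lengths came from a gene name table and GENCODE M21, which holds 98.7% of the transcript identifiers. CPM used library totals. TPM used the median length of a gene's basic transcripts, with the longest, merged exon and principal lengths as alternatives. For the test, counts were rounded and fitted with edgeR 4.0.16 in R 4.3.3 (filterByExpr minimum count of 10, TMM, quasi-likelihood F test, treatment and replicate number as terms, 2 residual degrees of freedom); the procedure was tested on simulated data. DESeq2 1.42.0 was an alternative.

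The rules for naming genes took the 20 most abundant, the 3 most abundant of each list, and the DKK1 receptor genes. They also took Col1a1, Acta2 and Lrp1, and the 10 most uneven and 5 most even genes. For some lists the text names fewer genes than the rules took. Other genes were chosen after their values were seen. An item that these rules name is not reported here. Members, lists and rules were chosen with earlier results of these data known. Replicate numbers come from the sample titles.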

Additional observations from a re-analysis of the deposited data

How the results depend on the processing

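Levels per length moved with the transcript length used, so shares of TPM are bound to that choice. The secreted lists together took 6.88% with the longest transcript, 7.29% with merged exons, 9.98% as a share of expected counts and 6.63% without mitochondrial and ribosomal RNA genes. Structural matrix took 4.08%, 4.17% and 6.99% with the longest, merged and no length correction. The contractile list took 2.45%, 2.65%, 2.30% and 2.29% with the longest, merged, principal and no length. Ribosomal proteins took 10.99%, 9.71% and 4.40% with the longest, merged and no length, and 12.4% without mitochondrial and ribosomal RNA genes. Mitochondrially encoded genes took 3.80%, 5.01%, 3.35% and 1.53% with the longest, merged, principal and no length. The principal transcript was chosen after seeing the data. The count of genes differing by replicate number ran from 1094 to 2568 when each library was left out. It was 724 with the replicate block tested in DESeq2, all of them among the 1895, 1852 with DESeq2 size factors, 1894 with unrounded counts, and 2790 without a low-count filter. Replicate number 3 minus the mean of the other two, on the log2 scale, changed direction for 2 named genes with uncertain counts that were not called in the first place. Gm20388 went from 0.05 to -0.65 with the replicate block in DESeq2, to -1.33 without control replicate 2, to -2.73 without control replicate 3 and to -0.14 without DKK1 replicate 1. Over all single libraries left out it ran from -2.73 to 1.02. Gm43305 went from 0.49 to -0.05 without control replicate 2 and to -0.79 without control replicate 3. Over all single libraries left out it ran from -0.79 to 1.59. The cause was not tested. Among named genes, Ckap4 (-0.06) lost its call by replicate number under DESeq2 (-0.06) and without control replicate 2 (-0.05), control replicate 3 (-0.04) or DKK1 replicate 2 (-0.07), and Lrp1 under DESeq2 and without DKK1 replicate 3. Gm43305 gained a call without a low-count filter and without control replicate 1 or any one of the DKK1 replicates, and Gm20388 without a low-count filter, control replicate 1 or DKK1 replicate 2. The number test has 2 residual degrees of freedom, and 1 CPM is as few as 22.6 counts in a library, which limits precision there.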
